A study of Mus musculus with 9 samples.

Results

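Glycolysis and the hypoxia response were followed here through 40 mouse genes: 20 glycolytic enzymes and transporters and 20 other targets and regulators of the hypoxia response. Members were taken by gene symbol. All 40 were among the 22173 genes of every deposited count file, and all 40 passed the filter on low counts, as did 12094 genes in all. Expression was measured by RNA sequencing in wild-type primary cells labelled as murine bone marrow-derived neutrophils. The cells had spent 2 days inside gelatin methacryloyl (GelMA), a gelatin gel of adjustable stiffness, in RPMI medium with fetal bovine serum. The 3 groups differed in gel stiffness alone by their labels: low (1.5 kPa, the control), middle (2.6 kPa) and high (5.7 kPa), with 3 libraries each and 9 in all. For strain, age, sex, neutrophil purity, oxygen level and pooling of cells, no information was given in the sources used here.

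Glycolysis splits glucose into pyruvate and yields ATP without oxygen, and neutrophils, which hold few mitochondria, depend on it for much of their energy. Hypoxia-inducible factor (HIF) is a transcription factor made of an oxygen-regulated alpha subunit and a stable beta subunit. In the presence of oxygen, prolyl hydroxylases mark the alpha subunit for degradation. When it accumulates it binds DNA at a short core element and raises transcription of glucose transporters, glycolytic enzymes and genes for mitochondrial removal, lipid storage and collagen folding. Inflammatory signals can also raise it in myeloid cells.

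The HIF core element (ACGTG or GCGTG) was searched on both strands in the 250 bases before each transcription start of the RefSeq promoter table (build GRCm38.p6). Such an element was present before at least 1 start in 33 of the 36 members matched to the table (91.7%), against 60.6% of the tested genes and 41.5% of all genes in the table. Slc2a3, Ppp1r3b, Ndrg1 and Bhlhe40 had no entry. The members were chosen as glycolysis and hypoxia response genes, so their surplus over other genes is not a result about them. By start, the element preceded 78.9% of the members' 57 starts against 54.7% of the starts of tested genes and 38.6% of all starts in the table, and base composition was not matched. The element was present in 18 of the 19 matched members that rose in high stiffness by the test described further on (94.7%) and in 14 of 15 that were not called (93.3%). Of the 2 that fell, Hk3 had a match and Eno2 had none. ACGTG alone was present in 68.4% of the matched members that rose and 53.3% of those not called, against 25.2% of the tested genes. By start, those 2 sets of members did not differ, at 45.2% and 45.8%, against 21.6% of the starts of tested genes. The 7 windows printed here are from genes with a single start in the table and were chosen to span the responses described further on: 6 genes that rose, and Hk3, which fell. Each is written 5′ to 3′ on the gene's own strand, ending at the base before the start, with each match in capitals (CACGT and CACGC are the matches on the opposite strand, and CACGTG is matched once on each strand).
Slc2a1, chr4:119108495-119108744, plus strand: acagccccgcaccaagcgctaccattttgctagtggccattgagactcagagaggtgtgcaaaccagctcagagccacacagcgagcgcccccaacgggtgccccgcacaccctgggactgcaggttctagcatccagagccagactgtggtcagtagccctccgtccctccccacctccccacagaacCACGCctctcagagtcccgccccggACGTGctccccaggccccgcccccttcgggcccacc
Slc16a3, chr11:120948817-120949066, plus strand: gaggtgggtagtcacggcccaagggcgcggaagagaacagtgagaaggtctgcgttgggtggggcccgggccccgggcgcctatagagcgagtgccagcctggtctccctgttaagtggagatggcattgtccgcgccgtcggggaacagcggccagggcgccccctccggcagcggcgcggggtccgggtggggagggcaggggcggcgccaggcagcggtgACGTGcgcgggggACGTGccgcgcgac
Gpi1, chr7:34230337-34230586, minus strand: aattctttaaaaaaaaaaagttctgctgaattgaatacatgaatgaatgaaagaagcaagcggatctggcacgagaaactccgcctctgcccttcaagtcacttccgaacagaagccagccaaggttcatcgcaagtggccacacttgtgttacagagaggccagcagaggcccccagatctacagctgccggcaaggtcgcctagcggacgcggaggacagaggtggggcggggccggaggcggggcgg
Hk3, chr13:55021386-55021635, minus strand: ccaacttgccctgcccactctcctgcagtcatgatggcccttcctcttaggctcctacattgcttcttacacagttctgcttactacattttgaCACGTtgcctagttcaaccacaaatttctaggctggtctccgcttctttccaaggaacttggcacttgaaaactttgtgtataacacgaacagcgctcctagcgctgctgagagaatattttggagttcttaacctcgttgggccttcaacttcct
Bnip3, chr7:138909507-138909756, minus strand: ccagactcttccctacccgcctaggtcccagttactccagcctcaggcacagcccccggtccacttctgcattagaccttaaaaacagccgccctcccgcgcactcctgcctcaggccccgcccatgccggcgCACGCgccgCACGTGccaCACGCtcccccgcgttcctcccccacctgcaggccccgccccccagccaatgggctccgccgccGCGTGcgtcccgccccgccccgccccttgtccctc
Ero1a, chr14:45318573-45318822, minus strand: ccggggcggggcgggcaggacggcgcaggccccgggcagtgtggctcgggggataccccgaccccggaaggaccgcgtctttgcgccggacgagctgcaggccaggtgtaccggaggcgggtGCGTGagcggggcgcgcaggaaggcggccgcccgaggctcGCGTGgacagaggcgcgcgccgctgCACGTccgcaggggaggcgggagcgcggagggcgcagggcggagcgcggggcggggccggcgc
P4ha2, chr11:54100674-54100923, plus strand: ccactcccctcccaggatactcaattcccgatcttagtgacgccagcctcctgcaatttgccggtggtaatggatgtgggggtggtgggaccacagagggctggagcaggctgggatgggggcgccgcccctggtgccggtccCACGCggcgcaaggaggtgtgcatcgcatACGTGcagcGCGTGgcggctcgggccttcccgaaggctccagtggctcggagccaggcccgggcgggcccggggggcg
Bnip3 had 5 matches, Ero1a and P4ha2 3 each, Slc2a1 and Slc16a3 2 each, Hk3 1 and Gpi1 0. Both Slc16a3 matches lay close together near the start. A match is a description of these letters and not evidence of binding, and the absence of one in Gpi1 speaks only of this window.

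The libraries held 13.2 M to 19.5 M counts, and the members together took 0.878% to 1.62% of them. The replicate number set the libraries apart more than stiffness did. Replicate 1 differed from the other 2 replicates in 65.4% of all tested genes (adjusted p under 0.05), and replicates 3 and 2 differed in 0.00%. Neutrophil markers moved with it: 13 genes such as S100a8 and Ly6g summed to 3198 to 3734 CPM (counts scaled to a common library total) in the replicate 1 libraries and to 13735 to 23443 CPM in the other 6. Their sum also moved with stiffness within replicates 2 and 3, where it was lowest in the high libraries, at 13735 and 13770 CPM. Ngp dropped by the most CPM there, from 5702 and 5794 CPM in low to 1746 and 1714 CPM in high. In proportion, Ly6g dropped further, from 51.2 and 43.8 CPM to 11.1 and 10.1 CPM. Csf3r went up instead, from 1181 and 1301 CPM to 1271 and 1514 CPM. Mmp8 and Mmp9 changed little, being slightly lower in high at replicate 2 and slightly higher at replicate 3. The 12 macrophage markers summed to 8360.0 to 8604 CPM in low, 5994 to 7142 CPM in middle and 5039.8 to 7612 CPM in high, and only Vsig4 among them was at or near 0 (at most 0.222 CPM). Gpnmb carried much of that sum, with 5709, 3354 and 3420 CPM in low and 4609, 1411 and 1165 CPM in high, whereas Csf1r (616, 1035 and 992 CPM in low and 778, 1712 and 1606 CPM in high) and Adgre1 were higher in high than in low at each replicate number. Lymphoid markers were lower in replicate 1 too, at 27.9 to 45.2 CPM against 78.5 to 156 CPM, as were those of megakaryocytes (33.0 to 56.4 against 116 to 233 CPM). The osteoclast sum was also lower (432 to 510.0 against 1667 to 1816 CPM), but most of it was Mmp9, which is in the neutrophil list as well. Acp5 was lower in replicate 1 (34.4 to 45.3 against 60.2 to 84.9 CPM). Ctsk went the other way, at 81.5 to 114 CPM in replicate 1 against 9.16 to 17.8 CPM. Erythroid markers went up with stiffness in replicate 1 (456, 522 and 807 CPM in low, middle and high) and down in replicate 2 (549, 340 and 317 CPM) and replicate 3 (529, 386 and 232 CPM). Dendritic markers did not exceed 69.6 CPM. The part of cell makeup in the results that follow was not tested, and in bulk RNA fewer cells of a type cannot be told apart from less RNA per cell. Nothing in the labels ties replicates to separate animals or cultures. The p-values thus cover the spread among these libraries alone, and it may be technical.

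In high against low stiffness, 20 of the 40 members rose and 2 fell (Hk3 and Eno2) when the replicate number was fitted as a block, and 18 were not called. Over all tested genes, 6.72% rose and 8.73% fell in that fit. The members' median log2 fold change was 0.36, with a median of -0.00 for all tested genes. Without the replicate term, which is the fit set as the main one for this design, edgeR's quasi-likelihood test called 0 members (0.0910% of all tested genes), 6 had an unadjusted p under 0.05 (7.72% of all genes), and DESeq2 called 5 (Slc2a1, Pfkp, Aldoc, Egln1 and P4ha2; 2.76% of all genes). The smallest adjusted p of a member without the replicate term was 0.252 (Slc2a1). The median was 0.39 in that fit. The estimated biological variation between libraries (coefficient of variation) went from 0.337 to 0.115 when the block was added. From here on, a fold change is on the log2 scale, ± its standard error, with the block fitted and n = 3 per group. CPM are TMM-normalised. A gene that "rose" or "fell" had an adjusted p under 0.05 in that fit, unless another is named.

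The count of 22 with the block leaned on single libraries. It was 8 without high replicate 2, where 4.91% of all genes were called, 11 without low replicate 3 (6.57%) and 12 without high replicate 3 (7.42%). Without each of the other 6 in turn it was 17 to 23, and 8.54% to 20.1% of all genes were called. The shares of all genes thus moved along with the members' counts. Called in all 9 of these fits were 7 members: Slc2a1, Slc16a3, Aldoc, Egln1, Hilpda, Ero1a and Ndrg1. The share of all genes called in all 9 is not given here, so this count has no background. Bnip3, Ak4 and Ddit4 were called in 2 of the 9 and Pdk1 in 4. In replicates 2 and 3 alone, 21 members rose and 2 fell (Hk3 and Slc2a3), against 12.2% and 14.0% of the 12214 genes tested there.

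**Figure D1:**
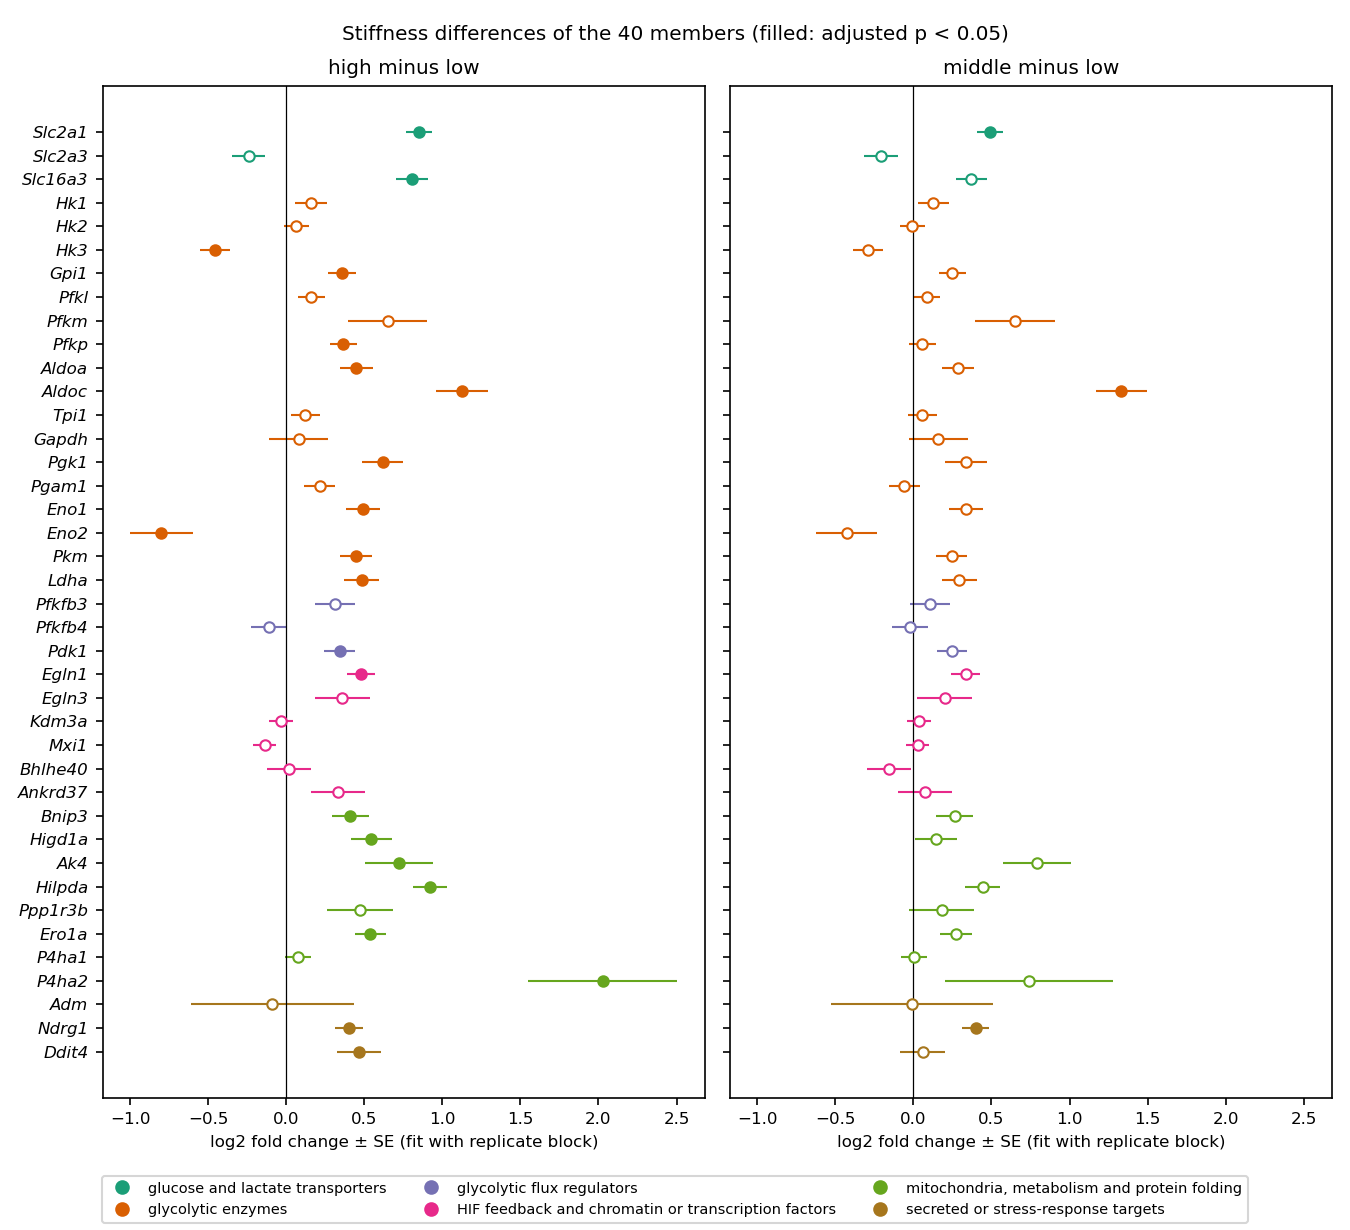
Log2 fold change of each of the 40 members in high minus low (left) and middle minus low (right) stiffness, with the standard error as a horizontal bar, from the fit with the replicate block. Colours give the role group and filled points an adjusted p under 0.05, which 22 members reach on the left and 3 (Slc2a1, Aldoc and Ndrg1) on the right.

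Of the 3 transporters 2 rose, 1 for glucose and 1 for lactate. Slc2a1, the widely expressed glucose transporter GLUT1, measured 179, 142 and 134 CPM in low replicates 1 to 3, 272, 189 and 183 in middle and 307, 256 and 255 in high. Every middle and every high library exceeded every low library, and the level climbed from low to middle to high at each replicate number. Slc2a1 rose by 0.85 ± 0.08 in high (adjusted p = 0.000161) and by 0.49 ± 0.08 in middle (adjusted p = 0.0163). Slc16a3, the lactate exporter MCT4, stood at 191, 279 and 276 CPM in low replicates 1 to 3, 247, 357 and 362 in middle and 274, 547 and 518 in high. It too climbed at each replicate number, but high replicate 1, at the level of low replicates 2 and 3, made the groups overlap. Its high minus low value was 0.81 ± 0.10 (adjusted p = 0.000651). Slc2a3, which encodes the high-affinity transporter GLUT3, did not follow: it stood at 176, 400.0 and 365 CPM in low replicates 1 to 3, 179.6, 283 and 332 in middle and 182, 290.0 and 298 in high and gave -0.24 ± 0.11 (adjusted p = 0.156). In replicates 2 and 3 alone it fell by 0.38 ± 0.09 (adjusted p = 0.00601), while within replicate 1 the difference was 0.05.

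Of the 17 glycolytic enzymes, 8 rose and 2 fell. Both genes that fell are isozymes with a narrow tissue range. Hk3, the hexokinase typical of myeloid cells, had 837, 350.3 and 332 CPM in low replicates 1 to 3, 705, 272 and 277 in middle and 669, 269 and 209 in high. At each replicate number it stepped down from low to middle to high, although every replicate 1 library was above every other, so that the groups overlapped. Hk3 fell by 0.45 ± 0.10 (adjusted p = 0.00939). Eno2, the enolase best known from neurons, had low levels of 20.3, 7.53 and 6.39 CPM in low replicates 1 to 3, 10.4, 6.29 and 6.56 in middle and 9.24, 5.26 and 4.01 in high. The drop was steepest at replicate 1, with within-number differences of -1.12, -0.51 and -0.65, and Eno2 fell by 0.80 ± 0.20 (adjusted p = 0.021). Without low replicate 1 its value was -0.52 and was not called (adjusted p = 0.0785), and it was called in 5 of the 9 fits that leave out a library. The other hexokinases, Hk1 and Hk2, gave 0.16 ± 0.10 and 0.06 ± 0.08 and were not called.

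In the upper steps of the pathway, Gpi1, phosphoglucose isomerase, measured 376, 509.6 and 513 CPM in low replicates 1 to 3, 491, 561 and 603 in middle and 549, 605 and 626 in high. Its 3 high libraries lay above its 3 low libraries, and it rose by 0.36 ± 0.09 (adjusted p = 0.0199). Pfkp, a subunit of phosphofructokinase, the committed step, measured 89.3, 77.1 and 75.9 CPM in low replicates 1 to 3, 89.4, 80.0 and 82.3 in middle and 101, 98.9 and 112 in high. Here the high libraries exceeded both the low and the middle ones, and Pfkp rose by 0.37 ± 0.09 (adjusted p = 0.0163). The liver-type subunit Pfkl gave 0.16 ± 0.09, and the muscle-type Pfkm, with only 13 to 66 counts per library, gave 0.65 ± 0.25. Neither was called. Aldoa, the broadly expressed aldolase, had 2298, 1489 and 1356 CPM in low replicates 1 to 3, 3267, 1569 and 1637 in middle and 3552, 1877 and 1786 in high. Replicate 1 stood above the other libraries, and within each replicate number the order was low, middle, high. Aldoa rose by 0.45 ± 0.10 (adjusted p = 0.0143). Aldoc, an aldolase better known from brain, averaged 2.93 FPKM (counts scaled to gene length and library total) against 865 for Aldoa, and stood at 6.03, 4.17 and 3.14 CPM in low replicates 1 to 3, 15.4, 8.93 and 9.36 in middle and 12.0, 8.54 and 8.22 in high. Every middle and high library was above every low one, and at each replicate number the middle library was the highest. Aldoc rose by 1.13 ± 0.16 in high (adjusted p = 0.00143) and 1.33 ± 0.16 in middle (adjusted p = 0.00368).

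In the lower steps, Pgk1, phosphoglycerate kinase and the first ATP-yielding enzyme of the pathway, stood at 105, 41.1 and 36.4 CPM in low replicates 1 to 3, 178, 41.7 and 40.9 in middle and 174, 64.8 and 50.3 in high. Replicate 1 was far above the others, and in replicates 2 and 3 the high library alone stood out. Pgk1 rose by 0.62 ± 0.13 (adjusted p = 0.0127). Eno1, the ubiquitous enolase, had 670.4, 472 and 454 CPM in low replicates 1 to 3, 1069.8, 510.1 and 533 in middle and 1098, 629 and 587 in high. It climbed at each replicate number and rose by 0.49 ± 0.11 (adjusted p = 0.0119). Pkm, pyruvate kinase, had 2635, 2024 and 1807 CPM in low replicates 1 to 3, 3424, 2079 and 2249 in middle and 3894, 2612 and 2409 in high, again in the order low, middle, high at each number. The increase was 0.45 ± 0.10 (adjusted p = 0.013). Ldha, which turns pyruvate into lactate, had 600.3, 428 and 373 CPM in low replicates 1 to 3, 910.1, 420.4 and 464 in middle and 999, 539 and 492 in high. In every group the replicate 1 library was the highest, so the groups overlapped. Ldha rose by 0.48 ± 0.11 (adjusted p = 0.0153). Tpi1, Gapdh and Pgam1, between or beside these steps, gave 0.12 ± 0.09, 0.08 ± 0.19 and 0.22 ± 0.10, and none was called.

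**Figure D2:**
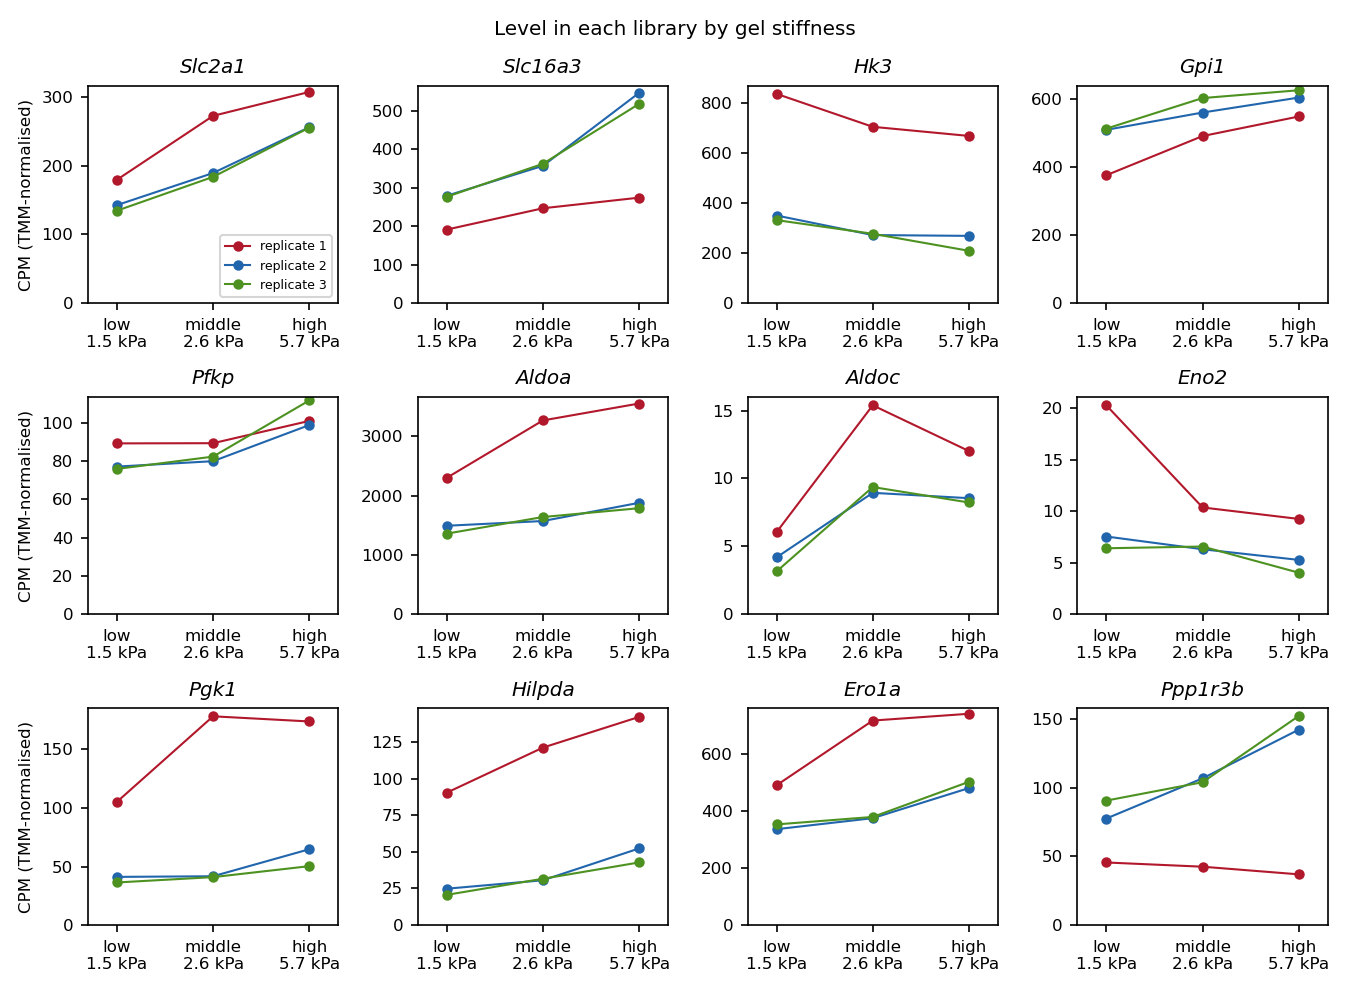
CPM (linear axis from 0) of 12 members in each of the 9 libraries, by gel stiffness, with lines joining libraries of the same replicate number. Slc2a1, Slc16a3, Gpi1, Pfkp, Aldoa, Hilpda and Ero1a climb along all 3 lines, Hk3 descends along all 3, and Ppp1r3b climbs in replicates 2 and 3 only. The replicate 1 libraries lie wholly above the others for Hk3, Aldoa, Eno2, Pgk1 and Hilpda and wholly below for Slc16a3 and Ppp1r3b. They overlap the others for Slc2a1, Gpi1, Pfkp, Aldoc and Ero1a.

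Several of these enzyme genes share transcript sequence with other genes, and their counts are reported as uncertain. Per length, in the authors' FPKM, Aldoa averaged 865 over the 9 libraries, Tpi1 359, Eno1 334, Pkm 334 and Gpi1 186, but Gapdh only 11.9, with a range of 7.43 to 13.7. Gapdh catalyses the step between Tpi1 and Pgk1 and is among the most abundant mRNAs of most cells. In GENCODE transcripts (vM21), 82.5% of the 50-base windows of the Gapdh transcript also occurred in another gene, and 215 of those genes were pseudogenes. The same share was 72.2% for Eno1, 68% for Pgk1, 41.5% for Pgam1, 34.4% for Pkm, 21.9% for Bnip3, 19.3% for Gpi1, 16.6% for Ldha, 13.5% for Aldoa, 11.3% for Ak4, 7.51% for Tpi1 and 7.51% for Higd1a. It was at most 0.61% for each of the other 28 members. The counting of reads with several matches was not given in the sources used here, and its part in these levels was not tested. Slc2a1, Slc16a3, Hk3, Pfkp and Aldoc shared no window with another gene.

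**Figure D3:**
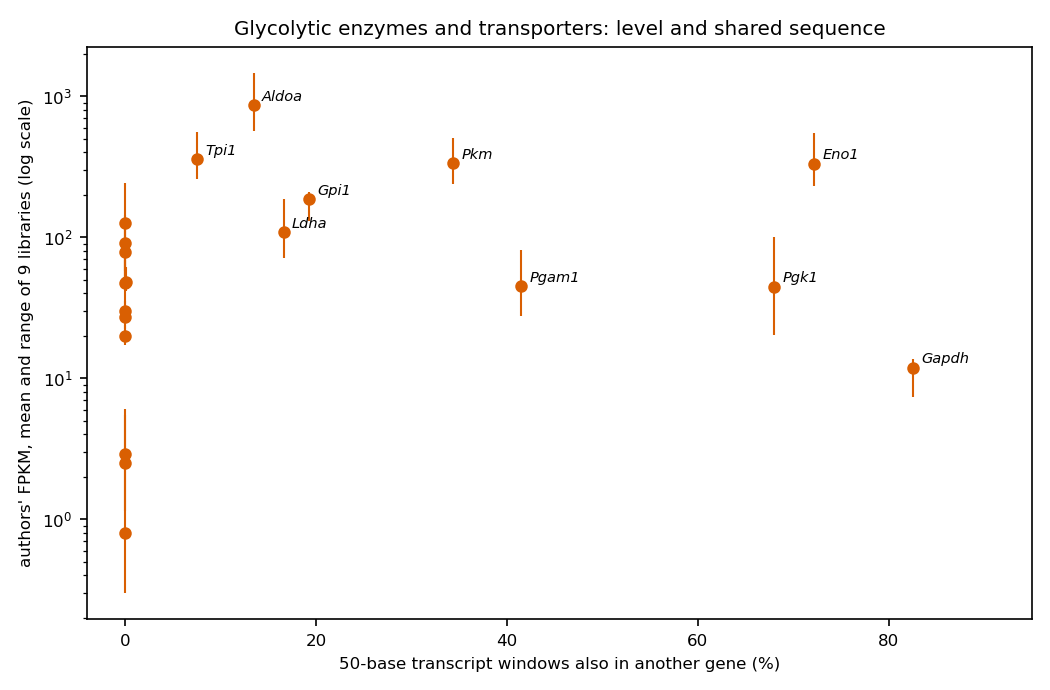
Mean level over the 9 libraries (authors' FPKM, log axis, bars for the range) of the 20 glycolytic enzymes and transporters against the share of their transcript's 50-base windows that occur in another gene. Gapdh, at 82.5%, has a mean of 11.9 FPKM, Eno1, at 72.2%, has 334, Aldoa, at 13.5%, has 865, and Aldoc, at 0%, has 2.93.

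Among the flux regulators, 1 of 3 rose. Pdk1 encodes a kinase that shuts off pyruvate dehydrogenase and so keeps pyruvate out of mitochondria. Its levels were 58.5, 44.7 and 46.5 CPM in low replicates 1 to 3, 75.1, 50.3 and 53.5 in middle and 66.1, 60.8 and 61.2 in high. Each high library lay above each low one, though replicate 1 peaked in middle. Pdk1 rose by 0.34 ± 0.10 (adjusted p = 0.0356). Pfkfb3 and Pfkfb4 encode bifunctional enzymes that set the activator of phosphofructokinase, and gave 0.32 ± 0.13 and -0.11 ± 0.12 without being called. In replicates 2 and 3 alone Pfkfb3 rose by 0.55 ± 0.08 (adjusted p = 0.000446).

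Of the 6 genes of HIF feedback and of chromatin or transcription factors, Egln1 rose. Egln1 is the main prolyl hydroxylase that marks HIF alpha subunits and is itself a HIF target. It had 70.3, 65.9 and 67.2 CPM in low replicates 1 to 3, 104, 76.2 and 78.6 in middle and 99.2, 92.0 and 92.8 in high. All middle and all high libraries were above all low ones, and the within-number differences of high and low were nearly equal, at 0.49, 0.48 and 0.47. Egln1 rose by 0.48 ± 0.09 (adjusted p = 0.00594), and its middle value of 0.33 ± 0.09 was not called (adjusted p = 0.103). Its relative Egln3 gave 0.36 ± 0.18, with high libraries above low ones but most of the difference at replicate 1, at 0.86, 0.20 and 0.10. Kdm3a, a histone demethylase, gave -0.03 ± 0.08. Mxi1, an antagonist of MYC, gave -0.14 ± 0.07, Bhlhe40, a transcriptional repressor, 0.02 ± 0.14, and Ankrd37, an ankyrin-repeat protein, 0.33 ± 0.17. None of these 5 was called.

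The group for mitochondria, metabolism and protein folding had the highest share called, with 6 of 8 rising and positive values for the other 2. Hilpda, which coats lipid droplets and restrains lipolysis, had 90.5, 24.8 and 20.6 CPM in low replicates 1 to 3, 121, 30.6 and 31.6 in middle and 142, 52.4 and 42.8 in high. Replicate 1 was highest throughout, and the level climbed with stiffness at each number. Hilpda rose by 0.92 ± 0.11 (adjusted p = 0.000521). Ero1a, an oxidase for disulfide formation in the endoplasmic reticulum, had 490.0, 336 and 353 CPM in low replicates 1 to 3, 717, 375 and 379 in middle and 741, 480.3 and 502 in high. It also climbed at each number, by nearly equal amounts of 0.60, 0.51 and 0.51 from low to high. Its value was 0.54 ± 0.10 (adjusted p = 0.00507). Bnip3, a receptor for mitochondrial removal, had 151, 118 and 116 CPM in low replicates 1 to 3, 241, 121 and 123 in middle and 255, 134 and 144 in high. It was higher in high at each number, most of all at replicate 1, and rose by 0.41 ± 0.12 (adjusted p = 0.0379).

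Higd1a, a small protein of the mitochondrial inner membrane, had 20.5, 12.1 and 13.1 CPM in low replicates 1 to 3, 26.0, 13.1 and 13.0 in middle and 35.5, 18.8 and 14.9 in high, with replicate 1 highest in each group. Higd1a rose by 0.54 ± 0.13 (adjusted p = 0.0182). Ak4, a mitochondrial adenylate kinase, had 9.35, 2.87 and 2.29 CPM in low replicates 1 to 3, 16.8, 5.18 and 3.55 in middle and 12.0, 4.58 and 5.31 in high. Its highest level at replicates 1 and 2 was in middle, and it rose by 0.72 ± 0.22 in high (adjusted p = 0.0461), close to the threshold. P4ha2, a catalytic subunit of the hydroxylase that modifies collagen prolines, was near the detection limit, with 3 to 37 counts per library and 0.226, 0.379 and 0.543 CPM in low replicates 1 to 3, 1.11, 0.406 and 0.615 in middle and 2.63, 0.848 and 1.81 in high. The high libraries still lay above the low ones. P4ha2 rose by 2.03 ± 0.48 (adjusted p = 0.0163), and it was called in 6 of the 9 fits without a library. P4ha1, which averaged 45.7 FPKM against 0.403 for P4ha2, gave 0.07 ± 0.08 and was not called.

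Ppp1r3b, which brings protein phosphatase to glycogen, split by replicate number, at 45.5, 77.6 and 90.6 CPM in low replicates 1 to 3, 42.5, 107 and 104 in middle and 36.9, 142 and 152 in high. It climbed with stiffness in replicates 2 and 3 and descended in replicate 1, and over all libraries gave 0.47 ± 0.21 (adjusted p = 0.179). Among the secreted or stress-response targets, Ndrg1, a stress-induced cytoplasmic protein, had 112, 51.2 and 54.3 CPM in low replicates 1 to 3, 145, 72.2 and 67.5 in middle and 162, 62.8 and 69.9 in high. It was lowest in low at each number and rose by 0.40 ± 0.09 in high (adjusted p = 0.0114) and 0.40 ± 0.09 in middle (adjusted p = 0.0454). Ddit4, an inhibitor of mTOR signalling, had 42.2, 22.5 and 20.1 CPM in low replicates 1 to 3, 38.5, 22.8 and 25.4 in middle and 41.9, 33.6 and 36.3 in high. The increase in high was confined to replicates 2 and 3, at -0.01, 0.57 and 0.85 by number, and the value over all libraries was 0.47 ± 0.14 (adjusted p = 0.0473). Adm, the peptide hormone adrenomedullin, had 10 to 61 counts per library and gave -0.09 ± 0.52.

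Fewer members were called for the single steps of stiffness. In middle against low with the block, 3 members rose (Slc2a1, Aldoc and Ndrg1) and 0 fell, against 0.810% and 1.03% of all tested genes, with a member median of 0.17 (0.01 for all). Without the replicate term edgeR called 0 members (0.00% of all genes), 3 had an unadjusted p under 0.05 (2.63% of all genes), and DESeq2 called 1 (0.397%). In high against middle, edgeR called 0 members with or without the block (0.0165% and 0.00% of all genes). With the block 10 had an unadjusted p under 0.05 (10.5% of all genes) and DESeq2 called 3 (1.01%). Without it 2 had an unadjusted p under 0.05 (1.48%) and DESeq2 called 0 (0.0166%). The member median was 0.15. In replicates 2 and 3 alone that step called 9 members, all higher (3.62% of all genes were higher): Slc2a1, Slc16a3, Pfkp, Pgk1, Pfkfb3, Hilpda, Ppp1r3b, Ero1a and Ddit4. Any difference among the 3 groups was called for 16 members with the block, against 1089 of all 12094 genes. Without it edgeR called 0 members and 0 genes, 5 members had an unadjusted p under 0.05 (4.56% of all genes), and DESeq2 called 2 members (1.63%).

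Overlap between groups and order along stiffness were also counted. In 8 members every high library was above every low one (Slc2a1, Gpi1, Pfkp, Aldoc, Pdk1, Egln1, Egln3 and P4ha2), against 5.90% of all genes, and in 0 the reverse held (6.76%). Within all 3 replicate numbers, 27 members were higher in high than in low and 5 were lower, against 23.7% and 24.8% of all genes. The full order of low, middle and high at each number was found in 11 members (Slc2a1, Slc16a3, Gpi1, Pfkp, Aldoa, Eno1, Pkm, Bnip3, Hilpda, Ero1a and P4ha2), against 5.10% of all genes, and the opposite order in Hk3 alone (5.61%).

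The lists of enzymes and transporters and of other targets had nearly the same median difference of high and low, 0.36 and 0.38. In each list 10 of 20 rose, and 2 and 0 fell, against 6.72% and 8.73% of all genes. By replicate number their medians parted somewhat. For replicates 1, 2 and 3 they were 0.53, 0.29 and 0.33 for enzymes and transporters, and 0.27, 0.44 and 0.34 for the other targets. The medians over all tested genes lay between -0.01 and -0.00. These are descriptions of lists chosen with results known.

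**Figure D4:**
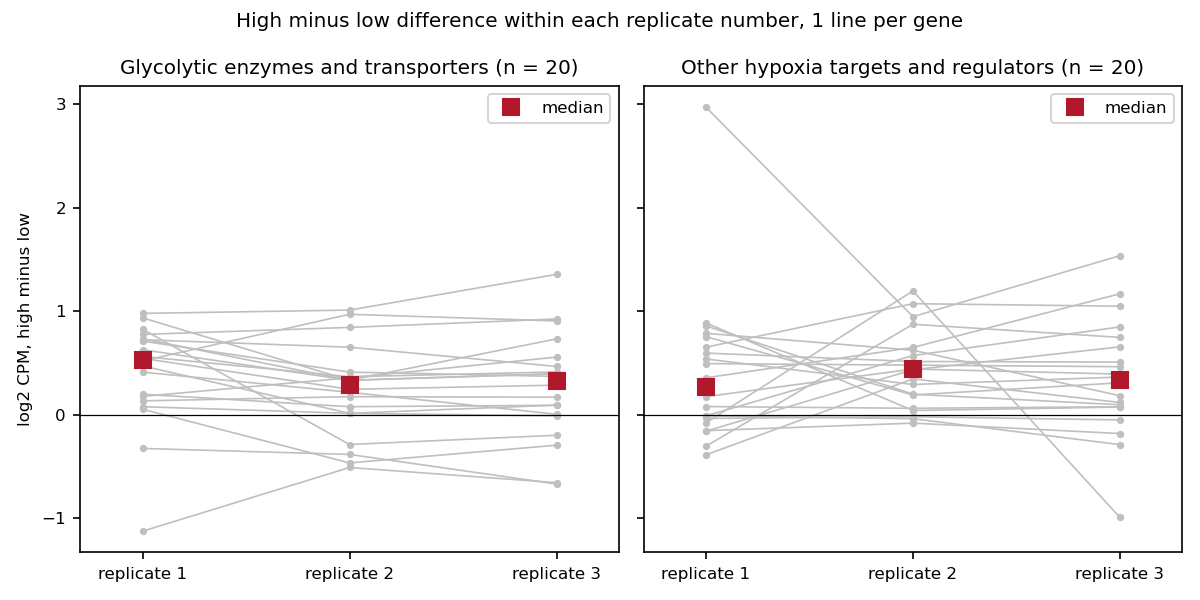
Difference of high and low log2 CPM within each replicate number, with 1 grey line per gene and a square for the median, for 20 enzymes and transporters (left) and 20 other targets (right). The medians are 0.53, 0.29 and 0.33 on the left and 0.27, 0.44 and 0.34 on the right, and the outlying line on the right that starts near 3 is P4ha2, a gene of very low counts.

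More members were called by replicate number than by stiffness. In replicate 1 against the mean of replicates 2 and 3, 24 members were higher and 9 lower, against 32.9% and 32.5% of all genes, with a median of 0.62. Of the enzymes and transporters, 12 were higher and 5 lower, and of the other targets 12 and 4. The most strongly raised were Hilpda (1.85 ± 0.09), Pgk1 (1.73 ± 0.11), Ak4 (1.69 ± 0.17), Hk3 (1.38 ± 0.08), Ndrg1 (1.14 ± 0.07), Pgam1 (1.12 ± 0.08) and Eno2 (1.10 ± 0.17). The most strongly lowered were Pfkfb4 (-1.52 ± 0.11), Ppp1r3b (-1.38 ± 0.19), Pfkm (-0.93 ± 0.23), Slc2a3 (-0.86 ± 0.10), Pfkfb3 (-0.70 ± 0.11) and Slc16a3 (-0.68 ± 0.09). Among members called in this comparison and in high against low stiffness, the directions were opposite for Hk3 and Eno2 (higher in replicate 1, fell in high) and for Slc16a3 and Gpi1 (lower in replicate 1, rose in high), and the same for the others. Both comparisons come from the same 9 libraries. In 19 members the 3 replicate 1 libraries lay above the other 6 and in 8 they lay below, against 27.7% and 26.5% of all genes. Replicates 3 and 2 differed in 0 members (0.00% of all genes) by edgeR with the block, and 0 members had an unadjusted p under 0.05 (1.24% of all genes).

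**Figure D5:**
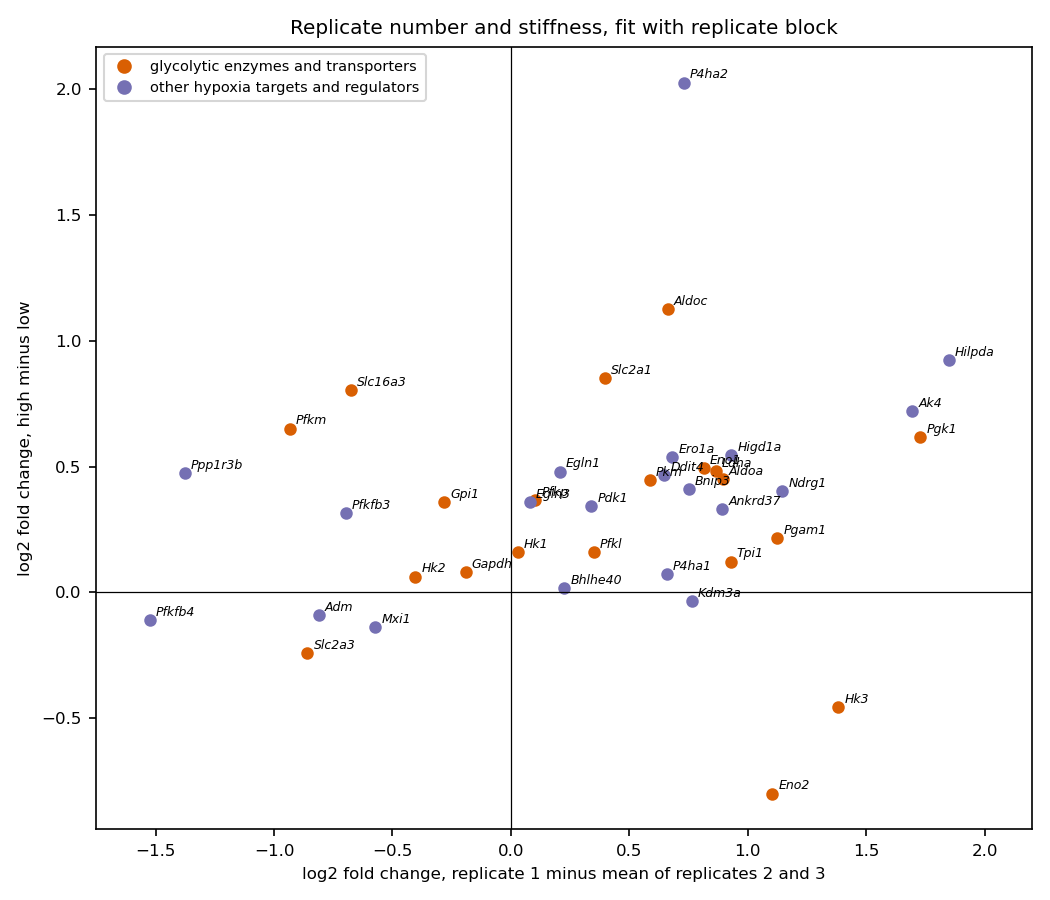
Log2 fold change of each member in replicate 1 against the mean of replicates 2 and 3 (horizontal) and in high minus low stiffness (vertical), both from the fit with the block and from the same 9 libraries. Most members lie right of and above 0, with Hk3 and Eno2 at the lower right and Slc16a3, Pfkm, Pfkfb3 and Ppp1r3b at the upper left.

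For 7 members the difference of high and low itself differed between replicate 1 and replicates 2 and 3 (more positive in replicate 1 for 4, more negative for 3), against 8.36% of all genes (2.52% and 5.84%; edgeR, adjusted p under 0.05, with the lone replicate 1 library of a group assumed to vary like the others). Gapdh stood at 12.8, 23.7 and 22.4 CPM in low replicates 1 to 3, 21.3, 22.7 and 21.4 in middle and 22.8, 19.4 and 19.6 in high. It was higher in high than in low at replicate 1 and lower at the others, and the effects differed by 1.08 ± 0.20 (adjusted p = 0.00719). Egln3, Bnip3 and Hk1 also had the larger difference at replicate 1, by 0.71 ± 0.14, 0.50 ± 0.12 and 0.47 ± 0.13. Ppp1r3b, Ddit4 and Pfkfb3 went the other way, at -1.11 ± 0.16, -0.72 ± 0.18 and -0.71 ± 0.14, and all 3 were higher in high than in low at replicates 2 and 3 but not at replicate 1.

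Counts in the pathway lists around the members are from the fit of high against low with the block, in which 6.72% of all genes rose and 8.73% fell, and nothing is read from single lists. Of 11 tested HIF factors and regulators, 1 rose: Egln2, another prolyl hydroxylase, by 0.42 ± 0.11. Among other glycolysis isozymes and transporters, 1 of 13 rose and 1 fell, both monocarboxylate transporters. Slc16a1 (MCT1) stood at 19.8, 9.76 and 9.89 CPM in low replicates 1 to 3, 21.4, 12.9 and 16.9 in middle and 26.1, 35.3 and 34.1 in high. It rose by 1.36 ± 0.28 (adjusted p = 0.0195). The increase was smaller at replicate 1, with a difference between replicate classes of -1.42 ± 0.24. Slc16a7 (MCT2) fell by 0.52 ± 0.15 (adjusted p = 0.0373). For the entry of pyruvate into mitochondria 1 of 12 rose, the pyruvate dehydrogenase kinase Pdk3 (0.45 ± 0.12), and for the tricarboxylic acid cycle 1 of 16, Dlst (0.29 ± 0.07). In glycogen metabolism and gluconeogenesis 4 of 12 rose: Pgm1, phosphoglucomutase (0.54 ± 0.12), Pcx, pyruvate carboxylase (0.92 ± 0.27), Gys1, glycogen synthase (0.34 ± 0.10), and Gbe1, the branching enzyme (0.41 ± 0.12). The increase of Gbe1 was larger at replicate 1, with a difference between replicate classes of 0.53 ± 0.13. Of 27 further hypoxia targets 2 rose, Fam162a (0.59 ± 0.12) and Jmjd6 (0.38 ± 0.08), with a median of 0.00. No gene of these lists fell besides Slc16a7.

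Hif1a, the oxygen-regulated alpha subunit, was singled out after its values were seen. It had 282, 491 and 492 CPM in low replicates 1 to 3, 276, 722 and 774 in middle and 259, 848 and 1065 in high. In replicates 2 and 3 it climbed steeply with stiffness, and in replicate 1 it was lower throughout and slightly lower still in high. Over all libraries it gave 0.59 ± 0.21 and was not called (adjusted p = 0.0999). It rose by 0.96 ± 0.10 in replicates 2 and 3 alone (adjusted p = 3.05e-05), and the difference between the replicate classes was -1.08 ± 0.17 (adjusted p = 0.00272). Of the 40 members, 27 were higher in high than in low at each of the 3 replicate numbers, against 23.7% of all genes. Slc2a1, Egln1 and Ero1a are examples, with differences of 0.47 to 0.93. Others, such as Ppp1r3b, Ddit4 and Pfkfb3, were like Hif1a higher in high at replicates 2 and 3 but not at replicate 1. Any link between Hif1a mRNA and the members was not tested, and HIF protein was not measured here.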

How the data were processed

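Poly(A) RNA libraries from 9 samples were prepared with a stranded kit, per the labels' protocols. The submitters' processing notes list cutadapt 1.9.1 and HISAT2 2.0.1 with HTSeq 0.6.1, DESeq2 and the build GRCm39, and settings were not given in the sources used here. For each library, the deposited file has raw counts of 22173 genes, the authors' FPKM, and another deposited column with the exonic size of each gene in bases. The FPKM values matched those recomputed from counts and sizes within 0.006 in 100% of cases and were used only to compare levels between genes.

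Counts were tested with edgeR 4.0.16 (R 4.3.3): filterByExpr, TMM, and robust quasi-likelihood fits over all 9 libraries, with Benjamini-Hochberg adjustment over all 12094 tested genes (threshold 0.05, two-sided). The main fit has stiffness alone. The labels number replicates 1 to 3 in each group. After removal of group means, the 9 same-number pairs correlated at 0.595 to 0.856, but pairs of replicates 2 and 3 from different groups did at 0.552 to 0.698, so the structure is mostly replicate 1 against the rest. The number was therefore also fitted as a block, and those values are printed because the calls change. No 2 libraries of a group agreed within counting noise (chi-square per degree of freedom at least 5.25). Alternatives were RLE scaling, no low-count filter, DESeq2 1.42.0, each library left out, and replicates 2 and 3 only. DESeq2 with the block and a block of 2 levels were added after seeing the data. Named genes are all members, every member called in any comparison in full, and up to 4 called genes of each pathway list. The members and lists were chosen with earlier results of these data known. Promoters are from RefSeq (GRCm38.p6), a build other than that of the counts, and plots used Python 3.11.15 with matplotlib 3.10.9.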

Additional observations from a re-analysis of the deposited data

Results flagged for a closer look

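For 7 members the effect of high against low stiffness differed between replicate 1 and replicates 2 and 3, by a test of that difference (edgeR quasi-likelihood, Benjamini-Hochberg over all 12094 genes; 8.36% of all genes passed). With 1 replicate 1 library per group, the test assumes that this library varies like the others. Values are the log2 difference of the effects, replicate 1 minus the others. Gapdh, the triose phosphate dehydrogenase of glycolysis, gave 1.08 (adjusted p = 0.00719), with high minus low differences of 0.83, -0.29 and -0.20 at replicates 1, 2 and 3. Egln3, a HIF prolyl hydroxylase, gave 0.71 (adjusted p = 0.00789). Bnip3, a mitophagy receptor, gave 0.50 (adjusted p = 0.0266) and Hk1, a hexokinase, 0.47 (adjusted p = 0.0428). In the opposite direction, Ppp1r3b, the glycogen-targeting phosphatase subunit, gave -1.11 (adjusted p = 0.00173), with differences of -0.30, 0.87 and 0.75. Ddit4, an mTOR inhibitor, gave -0.72 (adjusted p = 0.0333), and Pfkfb3, a regulator of phosphofructokinase, -0.71 (adjusted p = 0.0105), with differences of -0.16, 0.44 and 0.66. The neutrophil marker sums also set replicate 1 apart, at 3198 to 3734 CPM against 13735 to 23443 CPM, and their part in these differences was not tested.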

How the results depend on the processing

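Without a replicate term, edgeR called 0 members in each stiffness comparison, and 0 again with RLE scaling, without the low-count filter and without any 1 library. At most 0.334% of all genes were called in these fits. For high against low, 22 members were called with the replicate block (15.5% of all genes) and 22 with the block and RLE scaling (15.8%). DESeq2 with the block called 22 (16.0%) and a block of 2 levels 22 (18.8%). Replicates 2 and 3 only gave 23 (26.3%), and DESeq2 alone gave 5 (2.76%). With the block and each library left out, the count ran from 8 to 23, against 4.91% to 20.1% of all genes. Without low replicates 1, 2 and 3 it was 23, 17 and 11 (20.1%, 8.54% and 6.57%). Without those of middle it was 20, 19 and 18 (13.8%, 12.5% and 11.5%). Without those of high it was 21, 8 and 12 (18.4%, 4.91% and 7.42%). For middle against low the block called 3 (1.84% of all genes), the block with RLE 2 (1.93%) and DESeq2 with the block 5 (3.90%). A block of 2 levels called 3 (2.93%), replicates 2 and 3 only 6 (6.42%) and DESeq2 alone 1 (0.397%). With the block and a library left out it was 1 to 6, against 0.220% to 5.39% of all genes. High against middle gave 3 with DESeq2 and the block (1.01% of all genes) and 9 in replicates 2 and 3 only (6.88%). With the block and a library left out it gave 0 to 6, against 0.00% to 2.45% of all genes. The 6 were found without high replicate 1 (2.45%). Any difference among the groups was called for 16 with the block and 2 with DESeq2 alone. The difference between replicate classes was called for 7 members (8.36% of all genes) and for 11 without the low-count filter (9.03%). Sign changes in the fit without the block were looked for only in members called with it in the same comparison. Among these, 4 values changed sign when a replicate 1 library was left out. With each library left out, high minus low ran from -1.08 to 0.17 for Hk3 (positive without low replicate 1), from -0.078 to 1.32 for Pgk1 and from -0.12 to 0.91 for Ndrg1 (both negative without high replicate 1), and middle minus low from -0.047 to 0.84 for Ndrg1 (negative without middle replicate 1). The causes were not tested. The medians of both role groups kept their sign and size with the block and with RLE scaling, which moved the median of all genes by under 0.1.

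Replicate 1 stands apart in every group and in its neutrophil markers, and the labels do not say what a number shares. All stiffness calls of members by edgeR rest on the block or on leaving replicate 1 out. P4ha2, Adm and Pfkm have counts too low for fine comparison, and Gapdh, Eno1, Pgk1 and Pgam1 share much sequence with other genes, whose part in their counts was not tested.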

Other observations

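Values of 3 pathway genes outside the members follow for replicate 1 against the mean of replicates 2 and 3, by edgeR with the block, a comparison that called 65.4% of all 12094 genes. Hif1a was lower in replicate 1 than in the mean of replicates 2 and 3, at -1.35 ± 0.19 (adjusted p = 0.000454). Egln2, a prolyl hydroxylase that marks HIF alpha subunits, was higher, at 0.61 ± 0.09 (adjusted p = 0.000104); its libraries measured 70.9, 43.5 and 44.3 CPM in low replicates 1 to 3, 85.4, 45.7 and 55.1 in middle and 81.1, 64.6 and 61.4 in high. Gbe1, the glycogen branching enzyme, measured 163, 114 and 113 CPM in low replicates 1 to 3, 259.5, 113 and 121 in middle and 279, 139.9 and 129 in high and gave 0.92 ± 0.10 (adjusted p = 1.64e-05). These genes were chosen after their values were seen.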
